A study of Homo sapiens with 12 samples.

Results

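The MYC and MAX network is described here through 9 genes: MYC, MAX, MXI1, MXD3, MXD4, MNT, MLX, MGA and FBXW7. They were taken by gene symbol from the count table of 20212 genes, and all 9 passed the count minimum that left 13329 genes for testing. The cells were PANC-1, an established human pancreatic cancer line that the labels describe as pancreatic duct. They received DMSO, the solvent control, or 50 nM rapamycin for 60 min. Rapamycin inhibits mTORC1, the kinase complex that couples nutrients and growth factors to translation, and the comparison asks which mRNAs gained or lost translation under it. Each treatment had 3 biological replicates, called cultures 1 to 3 below, and each culture gave 1 library of ribosome footprints (RF, the mRNA fragments that ribosomes protect from nuclease) and 1 library of total RNA, so there were 12 libraries. The model is limited to 1 line, 1 dose and 1 time.

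MYC is a transcription factor that promotes ribosome production, metabolism and cell division, and it is often deregulated in pancreatic cancer. It binds DNA only as a dimer with MAX, at a site called the E-box. MXI1, MXD3, MXD4, MNT and MGA compete for MAX and repress transcription at the same sites, and MLX, a MAX-like protein, dimerises with MNT and MXD4 and with the glucose-responsive factors MLXIP and MLXIPL. FBXW7 is the substrate receptor of the SCF ubiquitin ligase that marks phosphorylated MYC for degradation. The MYC protein and its mRNA are short-lived, so the mRNA and its translation both set its level.

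The E-box is shown because it is the site that the network's dimers share, and some network genes carry it themselves. The motif CACGTG, which reads the same on both strands, was searched in RefSeq promoter windows (GRCh38.p14) from 250 bases before to 50 bases after each annotated start. A window was given for 8 of the 9 genes, in 16 windows in all, and 3 genes had 1 window each with the motif. Of all 35116 promoter windows, 7.26% held it. The 3 matches are written 5′ to 3′ on the strand of the gene, with the motif in capitals, and lie 238 (MXD4), 193 (MNT) and 50 (MLX) bases before the start.
MXD4 (minus strand, chr4:2262332-2262357): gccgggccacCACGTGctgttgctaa
MNT (minus strand, chr17:2401238-2401263): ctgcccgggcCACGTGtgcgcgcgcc
MLX (plus strand, chr17:42567040-42567065): gggcgcgggtCACGTGggcacgccac
A match is a description of these letters and not a measured binding site.

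Depth set what could be seen. The RF libraries held 278835 to 1574723 counts and the total RNA libraries 78081241 to 94293744, so 3 counts, taken as the floor, stood for up to 10.8 CPM (counts scaled to library size) in RF and at most 0.0384 CPM in total RNA. The 2 shallowest RF libraries were DMSO 1 and rapamycin 3. Among the total RNA libraries rapamycin 2 stood apart: over 9454 genes its median deviation from the median of the 6 libraries was 0.06 on the log2 scale, against 0.02 to 0.03 in the other 5. The duct keratins and other duct markers summed to 4707 to 4784 FPKM (the length-scaled abundance unit of Cufflinks) in the DMSO libraries and 4504 to 4771 in the rapamycin libraries. Of the 7 duct markers listed, 5 passed the count minimum and 1 stayed under 0.1 FPKM in every library, so the sum does not speak for each marker. The acinar, islet, fibroblast and endothelial lists summed to at most 1.83 FPKM in any library, and the immune list, of which CD68 alone passed the count minimum, summed to 69.0 to 88.4 FPKM in DMSO and 77.1 to 82.8 in rapamycin.

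Per transcript length, MYC was the most abundant member in total RNA at 48.4 ± 1.47 FPKM (SD, n = 3 DMSO cultures). MGA followed at 27.5 ± 0.50, MLX at 20.3 ± 0.46, FBXW7 at 15.2 ± 0.996 and MAX at 14.1 ± 1.55 FPKM. Over the 6 libraries each of the first 3 lay wholly above the next gene in this order, while FBXW7 and MAX overlapped. The 4 lowest were MXI1 at 6.95 ± 0.57, MNT at 5.43 ± 0.40, MXD4 at 5.04 ± 0.27 and MXD3 at 4.08 ± 0.58 FPKM, and each of these overlapped its neighbour. MAX stood above all 4.

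The balance of the partners in total RNA was close in both treatments. MYC had 3.46 ± 0.37 times the FPKM of MAX in DMSO and 3.72 ± 0.24 times in rapamycin (SD, n = 3 each), and the cultures overlapped. The 5 MAX-binding repressors among the 9 members together gave 49.0 ± 0.64 FPKM in DMSO and 49.2 ± 0.90 in rapamycin, about the level of MYC alone. More than 1 in 2 of these FPKM came from MGA, since MXI1, MXD3, MXD4 and MNT summed to 21.5 ± 0.21 and 21.8 ± 1.88. MXD1, read below with the other family members, is not in these sums. The sums also count isoform models without an annotated coding sequence, so they are not levels of coding mRNA. In DMSO such models included MNT-209 and MNT-205, at 37.5% and 24.1% of MNT FPKM. MGA-204 held 22.8% of MGA FPKM in DMSO, whereas MYC-204 held 2.69% of MYC FPKM.

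Total RNA of the members moved little with rapamycin. In the edgeR quasi-likelihood test no gene of the 13329 passed a Benjamini-Hochberg adjusted p of 0.05 in total RNA (background 0%). At an unadjusted p under 0.05, 2.51% of genes lay lower in rapamycin and 3.32% lay higher, and no member was among these. The fitted log2 fold changes of the 9 members (rapamycin over DMSO) ran from −0.05 (MXI1, SE 0.06) to 0.08 (MNT, SE 0.05). The smallest adjusted p among them was 0.766. Here and below, the SE of an edgeR value is its absolute log2 change divided by the square root of its F statistic. In these bulk libraries fewer cells with a transcript and less of it per cell cannot be told apart.

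MYC measured 106, 112 and 111 CPM in DMSO 1 to 3 and 110, 114 and 115 CPM in rapamycin 1 to 3. The groups overlapped, and the fitted log2 change was 0.04 ± 0.03 (SE; edgeR quasi-likelihood, adjusted p = 0.769). MAX measured 19.5, 20.5 and 18.4 CPM in DMSO and 19.8, 18.5 and 18.7 CPM in rapamycin, also overlapping.

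FBXW7 was the 1 member whose total RNA did not overlap between treatments. It measured 28.02, 29.7 and 29.7 CPM in DMSO and 30.2, 30.7 and 31.4 CPM in rapamycin, a log2 difference of 0.08 ± 0.04 (SE; edgeR quasi-likelihood, unadjusted p = 0.094, adjusted p = 0.766). Of all genes tested, 8.22% lay wholly higher in rapamycin in this way and 6.61% wholly lower. The direction turned with the measure: in FPKM, where the DMSO cultures gave 14.1 to 16.1 and the rapamycin cultures 14.5 to 14.98, the fitted log2 difference was −0.04.

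**Figure D1:**
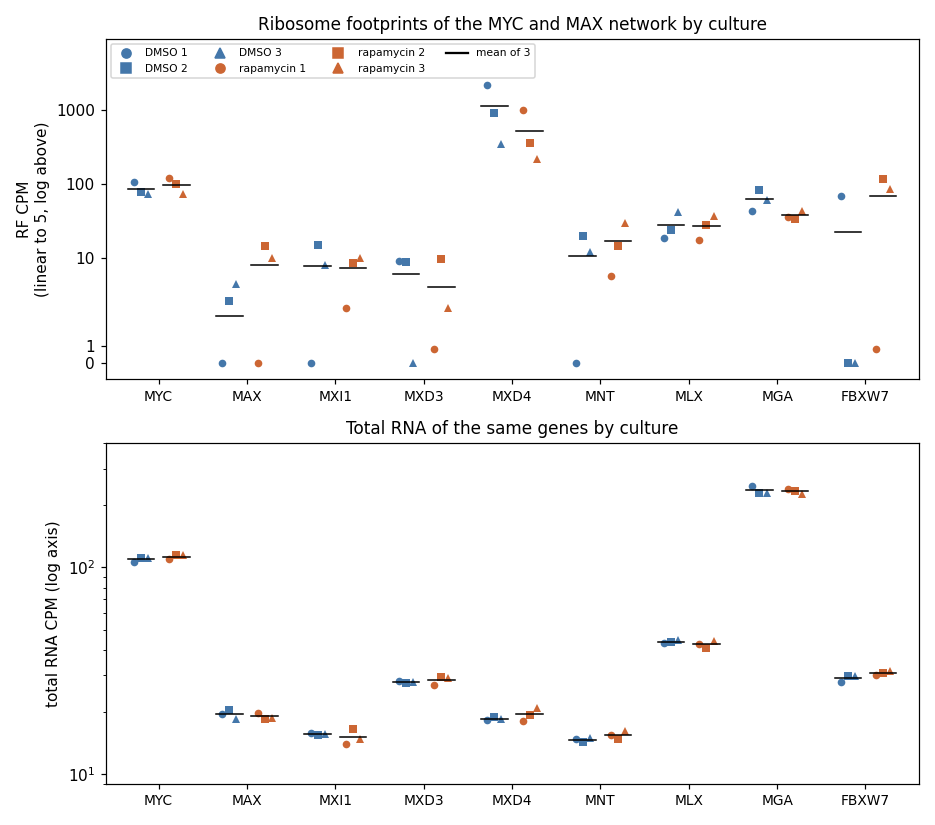
RF (upper panel) and total RNA (lower panel) of the 9 genes in CPM, by culture; blue points are DMSO, orange points rapamycin, marker shapes are culture numbers and black bars are means of 3 cultures. Total RNA stays tight for every gene, with MGA above 228 CPM in each library, while RF spreads widely, from 216 to 2141 CPM for MXD4 and from 0 to 116 CPM for FBXW7.

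Footprints were sparse for most of the network. The 6 RF libraries together held 449 counts for MYC, 252 for MGA, 145 for FBXW7, 141 for MLX, 62 for MNT, 38 for MXI1, 25 for MAX and 20 for MXD3. MXD4 alone had 3478, which is 75.4% of the RF counts of the 9 genes against 3.68% of their total RNA counts. MAX and MXD3 each had 3 counts or fewer in 4 of 6 RF libraries, so their translation could hardly be followed at this depth.

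No gene of the 13329 passed an adjusted p of 0.05 for translational efficiency (TE, footprints relative to total RNA of the same gene, tested as the library type by treatment interaction in edgeR), a background of 0%. At an unadjusted p under 0.05, TE was lower for 6.42% of genes under rapamycin and higher for 6.17%. Taking log2 TE per culture with a prior count of 2, 6.19% of genes had every rapamycin culture below every DMSO culture and 4.8% had every one above. None of the 9 members was separated in this way, and 1 member, MGA, passed the unadjusted threshold. For RF alone 0% of genes were called, 3.68% had an unadjusted p under 0.05 and 9.45% did not overlap between treatments in CPM. No member belonged to either share. The TE fit used 1 spread per gene for both library types. The common coefficient of variation between replicates was 24.4% in that fit, against 54.9% in RF alone and 5.31% in total RNA alone. The SE and p of a TE value can therefore understate the RF spread. For MGA the SE was 0.28 in TE but 0.45 in RF alone, where its unadjusted p was 0.11 (edgeR quasi-likelihood).

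MYC footprints numbered 34, 62 and 107 in DMSO 1 to 3 and 143, 81 and 22 in rapamycin 1 to 3, which is 105, 77.9 and 72.7 CPM against 119, 98.0 and 73.2 CPM. The lowest and the highest culture of each treatment interleaved. MYC log2 TE was 0.01, −0.47 and −0.56 in DMSO and 0.14, −0.19 and −0.60 in rapamycin. The fitted log2 TE change was 0.23 ± 0.28 (SE; edgeR quasi-likelihood, adjusted p = 0.783), and a two-sided exact permutation test of the 6 cultures gave p = 0.7, where 0.1 is the smallest p that 3 against 3 can give. The value depended on the tool: the DESeq2 Wald test gave 0.37 ± 0.15 (SE, unadjusted p = 0.0111, adjusted p = 0.0858). In RF, MYC varied somewhat less between libraries than the median gene. Of 1848 genes with at least 20 counts in every RF library, the median ratio of highest to lowest CPM was 1.87. For MYC it was 1.63, and 1275 of these genes had a ratio at or above that.

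MAX, the obligate partner (ENSG00000125952, minus strand, chr14:65472892-65569413 in GRCh37), had 0, 3 and 7 footprints in DMSO and 0, 12 and 3 in rapamycin. Both treatments held a library with none, and a count of 0 allows up to 3 counts, or 9.89 CPM in DMSO 1 and 2.39 CPM in rapamycin 1. The log2 TE change was 0.78 ± 0.99 (SE; edgeR quasi-likelihood, adjusted p = 0.788).

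Among the MAX-binding repressors, MGA gave the smallest p of the network in the TE test. MGA (ENSG00000174197, plus strand, chr15:41913332-42065279) is a very large scaffold protein that brings MAX into a Polycomb-type repressor complex, and its isoform MGA-207 codes for 2856 residues. Its footprints numbered 14, 66 and 88 with DMSO and 43, 28 and 13 with rapamycin, or 43.1, 82.9 and 59.8 CPM against 35.6, 33.9 and 43.2 CPM. The total RNA was 248, 231 and 230 CPM against 239, 234 and 228 CPM. MGA log2 TE was −2.45, −1.43 and −1.89 in DMSO and −2.65, −2.69 and −2.32 in rapamycin, so DMSO 2 and DMSO 3 lay above every rapamycin culture and DMSO 1 lay within their range. The fitted log2 TE difference was −0.79 ± 0.28 (SE; edgeR quasi-likelihood, unadjusted p = 0.0139, adjusted p = 0.284), and the exact permutation test gave p = 0.2. The fit takes the RF and total RNA libraries of 1 culture as separate samples, and with the culture as a block MGA had an unadjusted p of 0.0629. With DESeq2 the difference was −0.83 with an adjusted p of 0.00251, a call that the edgeR fit does not give. MGA total RNA differed by −0.02 ± 0.04.

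MXD4, a MXD-family repressor, stood apart by its footprints. In DMSO its RF libraries counted 696, 719 and 505 reads and in rapamycin 1201, 292 and 65, or 2141, 904 and 343 CPM against 996, 353 and 216 CPM, while total RNA was 18.3 to 18.8 CPM in DMSO and 18.1 to 20.9 CPM in rapamycin. Within each treatment MXD4 thus varied several-fold in RF between cultures whose total RNA was nearly equal. The log2 TE was 6.87, 5.59 and 4.22 in DMSO and 5.78, 4.20 and 3.38 in rapamycin, a fitted difference of −1.13 ± 0.88 (SE; edgeR quasi-likelihood, adjusted p = 0.643), and the cultures overlapped. Without DMSO 1 the difference was −0.28 and without rapamycin 1 it was −2.07. Among the 1848 genes with at least 20 counts in every RF library, 19 had a ratio of highest to lowest CPM at or above the 9.90 of MXD4.

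The TE level of MXD4 was also high for its RNA. Of 9454 genes with a mean of at least 10 CPM in total RNA, 22, MXD4 included, reached its mean DMSO log2 TE of 5.56, and 36 reached its mean of 4.45 in rapamycin. Of all 13329 genes tested, whatever their total RNA, 1107 reached the DMSO mean of MXD4. The gene lies on the minus strand at chr4:2249159-2263836 (GRCh37), and the annotation places a microRNA gene, MIR4800, on the same strand within the 3′ untranslated region of its main isoform MXD4-201, at chr4:2251804-2251883. Its mature RNA is printed because it lies on an exon of the member with most footprints, with the seed, bases 2 to 8, in capitals.
hsa-miR-4800-3p: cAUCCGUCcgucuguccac
MIR4800 has no row in the count table, and the gene counts do not show where on MXD4 the footprints lay, so its part in them was not tested. Of the genes at or above MXD4 in DMSO log2 TE, MXD4 included, 20 matched the annotation. MXD4 was the 1 among them with a same-strand small RNA gene on an exon. MXD4 set that cut, so its own match was fixed in advance. The share among the 20 can therefore not be compared with the 2.62% of the 9350 matched genes with at least 10 CPM.

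The other MXD-type repressors were near the limit of detection. MXI1 footprints numbered 0, 12 and 12 under DMSO and 4, 7 and 3 under rapamycin, with a log2 TE change of −0.57 ± 0.68 (SE; edgeR quasi-likelihood, adjusted p = 0.776). MXD3, a MXD protein linked to S phase, had 3, 7 and 0 against 1, 8 and 1, and a change of 0.11 ± 1.10 (adjusted p = 0.98). MNT, the most widely expressed MAX-binding repressor, had 0, 16 and 18 against 7, 12 and 9, and a change of −0.19 ± 0.61 (adjusted p = 0.926). The sign turned in 7 of 14 alternative fits for MNT and in 5 of 13 for MXD3, and the means of MXI1 log2 TE per culture differed by 0.32, opposite in sign to its fit. No direction of TE can be read for these 3 genes. MXD3 shares exonic sequence with RAB24 on its own strand, and 7 of the other members have an exon that overlaps a gene on the opposite strand (MAX with FNTB, MLX with PSMC3IP and MYC with CASC11 among them). Whether counting used the strand is not given in the sources used here, so these counts may hold reads of the partner.

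MLX (ENSG00000108788, plus strand, chr17:40719090-40725257) had 6, 19 and 61 footprints in DMSO and 21, 23 and 11 in rapamycin, or 18.5, 23.9 and 41.4 CPM against 17.4, 27.8 and 36.6 CPM. The cultures overlapped throughout, and the log2 TE change was −0.27 ± 0.45 (SE; edgeR quasi-likelihood, adjusted p = 0.849). Its total RNA was 43.1, 43.5 and 44.5 CPM in DMSO and 42.8, 40.8 and 44.1 CPM in rapamycin.

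FBXW7 (ENSG00000109670, minus strand, chr4:153241696-153457244) had footprints in some libraries and nearly none in others of the same treatment. The counts were 22, 0 and 0 in DMSO and 1, 96 and 26 in rapamycin, or 67.7, 0 and 0 CPM against 0.83, 116 and 86.5 CPM. FBXW7 was therefore high in DMSO 1, rapamycin 2 and rapamycin 3 and at or under 1 count in the other 3, although all 6 total RNA libraries held 2377 to 2758 counts. The fitted log2 TE change was 2.58 ± 1.501 (SE; edgeR quasi-likelihood, adjusted p = 0.511), and the exact permutation test gave p = 0.2. The value swung with single libraries: it was 1.01 without rapamycin 2 and 14.4 without DMSO 1, where every remaining DMSO count is 0 and the fitted value is no bound.

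**Figure D2:**
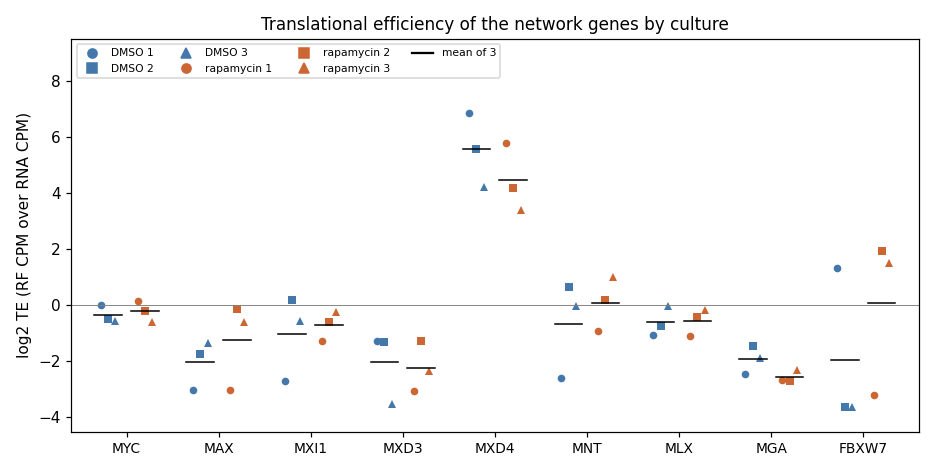
log2 TE (RF CPM over total RNA CPM, prior count 2) of the 9 genes by culture, in the same colours and marker shapes, with black bars for means of 3 cultures. MXD4 lies between 3.38 and 6.87 and above every other gene, MGA is lower in rapamycin on average but overlaps through DMSO 1, and FBXW7 splits into 3 high and 3 low cultures across both treatments.

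**Figure D3:**
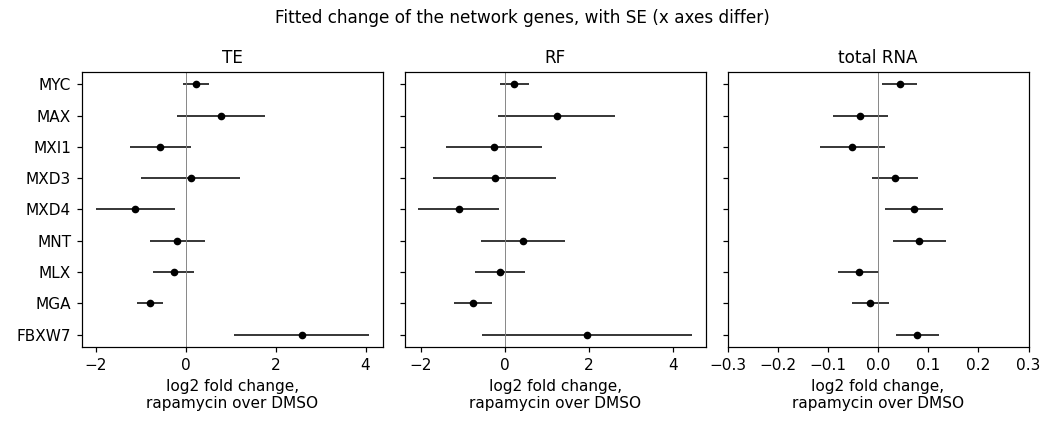
Fitted log2 fold changes (points) and SE (bars) of the 9 genes for TE, RF and total RNA, on separate x axes. Total RNA changes stay within −0.05 and 0.08, TE changes run from −1.13 for MXD4 to 2.58 for FBXW7, and none passed an adjusted p of 0.05.

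Isoforms of the members were measured in total RNA as FPKM. Of 89 isoforms of the 9 genes, 63 reached a mean of 0.1 FPKM and were tested with limma-trend on log2(FPKM + 0.1). None had an unadjusted p under 0.05, against 4.77% of the 88071 isoforms tested. At an adjusted p of 0.05, 0.00568% of all isoforms were called, none of them from the network.

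MYC-205, which codes for 453 residues, made up 69.2 ± 1.88% of MYC FPKM in DMSO and 66.5 ± 0.60% in rapamycin (SD, n = 3 each). MYC-202, which codes for 439 residues, made up 27.4 ± 1.67% and 29.4 ± 1.21%. MYC-202 gave 13.7, 13.2 and 12.9 FPKM in DMSO and 14.2, 15.5 and 14.5 FPKM in rapamycin, so the treatments did not overlap, with a log2 difference of 0.15 ± 0.06 (SE; limma, unadjusted p = 0.0503).

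MAX-204, the 151-residue form, held 53.4 ± 6.20% of MAX FPKM in DMSO and 52.1 ± 4.74% in rapamycin. MLX-203, which codes for 244 residues, held 49.3 ± 2.48% and 47.6 ± 3.27%, and MXD4-201, for 209 residues, held 59.1 ± 5.32% and 61.1 ± 2.76%. None of these shares moved by more than its SD.

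MXI1-201, which codes for 228 residues, gave 4.10, 2.74 and 3.11 FPKM in DMSO and 2.58, 2.56 and 2.46 FPKM in rapamycin. Every rapamycin value lay below every DMSO value, and the log2 difference was −0.36 ± 0.17 (SE; limma, unadjusted p = 0.0748). MXI1 as a gene was at 6.95 FPKM in both treatments.

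For FBXW7, the short coding model FBXW7-212 took 41.2 ± 2.32% of FPKM in DMSO and 36.5 ± 7.05% in rapamycin, while FBXW7-201 and FBXW7-204, which both code for 707 residues, took 12.8 ± 2.73% and 9.24 ± 0.82% in DMSO. Their rapamycin shares were 14.0 ± 0.86% and 11.5 ± 1.84%. FBXW7-205, a model without a coding sequence, was 0.61 to 0.68 FPKM in DMSO and 0.82 to 0.95 FPKM in rapamycin, and MLX-204, also without one, was 0.52 to 0.68 FPKM against 0.75 to 0.92 FPKM. Of the 63 isoforms, these 2 and MYC-202 were higher in rapamycin without overlap and MXI1-201 was lower, where 5.15% of all isoforms tested were higher and 5.17% lower in this way.

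**Figure D4:**
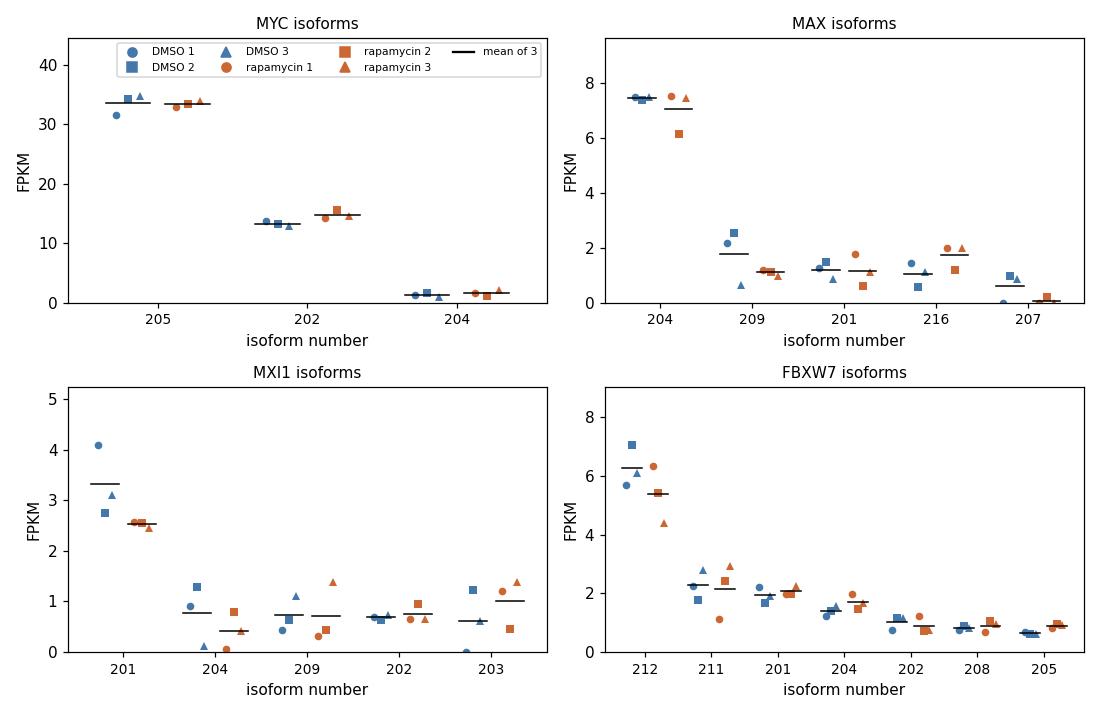
Isoforms of MYC, MAX, MXI1 and FBXW7 with a mean DMSO level of at least 0.5 FPKM, by culture, in the same colours and marker shapes; the x axis gives isoform numbers and black bars are means of 3 libraries. MYC-202 lies a little higher and MXI1-201 lower in rapamycin without overlap, whereas MYC-205 and MAX-204 overlap.

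Genes that work with the network were read from 5 lists. No gene of any list passed an adjusted p of 0.05 in TE, RF or total RNA with edgeR. Over all genes tested, the median log2 change was −0.06 in TE, 0.02 in RF and 0.006 in total RNA.

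The other family members MYCL, MXD1, MLXIP, MLXIPL, MYCBP and MYCBP2 were tested out of 7 listed. All 6 had a TE value below 0, with a median of −0.60, and none had an unadjusted p under 0.05 in either direction. The count rested on single libraries, since 3 of 6 were below 0 without DMSO 2 and 4 of 6 without rapamycin 1, and the median ran from −1.01 to −0.43 with 1 library left out. In TE, MYCBP, a MYC-binding protein, gave −1.42 ± 0.78 (log2, SE), which was −0.36 without rapamycin 1 and −4.15 without rapamycin 2. MLXIPL, the factor that senses glucose with MLX, gave −1.07 ± 0.98, which was −0.47 without DMSO 3 and −0.55 without rapamycin 1. In total RNA the smallest p values belonged to MLXIP (0.19 ± 0.14) and MYCBP2 (0.07 ± 0.06), and without rapamycin 2 these were 0.0069 and −0.0086.

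Of 18 co-factors, 12 had a TE value below 0 (median −0.10), or 8 without DMSO 2 (median 0.01). CDK9, the kinase of P-TEFb that releases paused RNA polymerase at MYC targets, was the 1 with an unadjusted p under 0.05, in the direction of higher TE, which 6.17% of all genes reached. CDK9 measured 12.3, 11.3 and 14.3 RF CPM in DMSO and 37.3, 35.1 and 46.6 RF CPM in rapamycin, while total RNA was 21.1, 21.9 and 22.4 CPM against 21.5, 22.6 and 20.9 CPM. In DMSO 1, where the floor of 3 counts was 9.89 CPM, CDK9 lay near that floor. Its log2 TE was −0.52, −0.67 and −0.43 in DMSO and 0.89, 0.73 and 1.23 in rapamycin, without overlap. The fitted difference was 1.54 ± 0.31 (SE; edgeR quasi-likelihood, unadjusted p = 0.000196, adjusted p = 0.18), and DESeq2 gave an adjusted p of 8.97e-05. With the culture as a block its unadjusted p was 0.0441. With voom, a limma fit given a separate variance for each library type, it was 0.00838 (adjusted p = 0.724). ACTL6A, a chromatin-remodelling subunit, gave a TE value of −0.44 ± 0.34, which was −0.12 without DMSO 2 and −0.76 without DMSO 3. In total RNA, HDAC1, a deacetylase of the SIN3 repressor complex that MXD proteins recruit, gave −0.09 ± 0.04 and the elongation factor PAF1 −0.10 ± 0.04, and HDAC1 alone had an unadjusted p under 0.05 (0.0455). Of all genes, 2.51% reached that p for lower total RNA. Without rapamycin 2 the values of HDAC1 and PAF1 were −0.05 and −0.04, and HDAC1 had a p of 0.101.

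Of 20 genes that govern MYC protein turnover, 2 had an unadjusted p under 0.05 for lower TE and 1 for higher TE (median −0.16), or 10% and 5% of the list against 6.42% and 6.17% of all genes. The median turned positive, at 0.05, 0.07 and 0.09, with the replicate block, the culture block and without DMSO 3. AURKA, the kinase known to shield MYC proteins from FBXW7, measured 67.7, 152 and 99.2 RF CPM in DMSO and 42.3, 58.1 and 66.5 RF CPM in rapamycin, with a TE difference of −0.96 ± 0.33 (SE; edgeR quasi-likelihood, adjusted p = 0.277). SET, an inhibitor of the phosphatase PP2A, measured 228, 240 and 191 RF CPM against 148, 144 and 153 RF CPM, with a TE difference of −0.49 ± 0.17 (adjusted p = 0.283). STUB1, a ubiquitin ligase that works with chaperones and was named after its values were seen, gave 1.09 ± 0.41 (adjusted p = 0.309). All 3 were separated between treatments in log2 TE, as were 6.19% (lower) and 4.8% (higher) of all genes, and in RF, as were 9.45% in either direction. With the culture as a block their unadjusted p were 0.042, 0.0475 and 0.0506. In DESeq2 their adjusted p were 0.0235, 0.0274 and 0.031. With voom and the variance by library type their unadjusted p were 0.072, 0.58 and 0.0862. In total RNA, AURKA (−0.08 ± 0.03) and PLK1 (−0.08 ± 0.03), mitotic kinases both, had an unadjusted edgeR p under 0.05. They were 2 of the 20 genes, against 2.51% of all genes for lower total RNA. With the replicate block their unadjusted edgeR p were 0.061 and 0.0642. AURKA had a p of 0.0939 without rapamycin 2, and PLK1 had 0.114 without rapamycin 1.

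Textbook MYC targets had small total RNA values, mostly below 0, and none was called. Of 28 tested out of 30 listed, 25 had a value below 0, with a median log2 change of −0.06. At an unadjusted p under 0.05, 8 were lower and 1 higher, and 9 lay wholly below DMSO in rapamycin, to be set against the 2.51%, 3.32% and 6.61% of all genes given above. NCL, the nucleolar protein nucleolin, measured 631, 621 and 589 CPM in DMSO and 562, 470 and 555 CPM in rapamycin, a difference of −0.21 ± 0.07 (log2, SE; edgeR quasi-likelihood, adjusted p = 0.766), which was −0.13 without rapamycin 2. EIF4A1, the helicase of the cap-binding complex, measured 165, 161 and 155 CPM against 148, 151 and 148 CPM, a difference of −0.10 ± 0.03 (adjusted p = 0.766). The 1 gene higher was BCAT1, a branched-chain amino acid transaminase named after its values were seen, at 0.15 ± 0.07. The values moved with rapamycin 2, the library that stood apart, and its part in the result was not tested. Without it the median was −0.03, with 23 of 27 targets below 0 and 5 at an unadjusted p under 0.05 for lower. Over the 14 alternative fits of total RNA the median ran from −0.08 to that −0.03, and 23 to 26 of the 26 to 28 targets tested were below 0. The number of targets with an unadjusted p under 0.05 for lower also moved with other libraries. It was 3 without DMSO 3 and 4 without DMSO 2, and 9 with no count filter or with DESeq2. In TE the list had a median of 0.04, with 13 below 0 and 15 above. UBTF, a factor for ribosomal RNA synthesis, gave a TE value of −0.85 ± 0.39 (unadjusted p = 0.0454, adjusted p = 0.385 with edgeR), which was −0.43 without DMSO 2 and had an unadjusted p of 0.0893 with a culture block. EIF4E, the cap-binding protein, gave 0.63 ± 0.31 (adjusted p = 0.428).

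**Figure D5:**
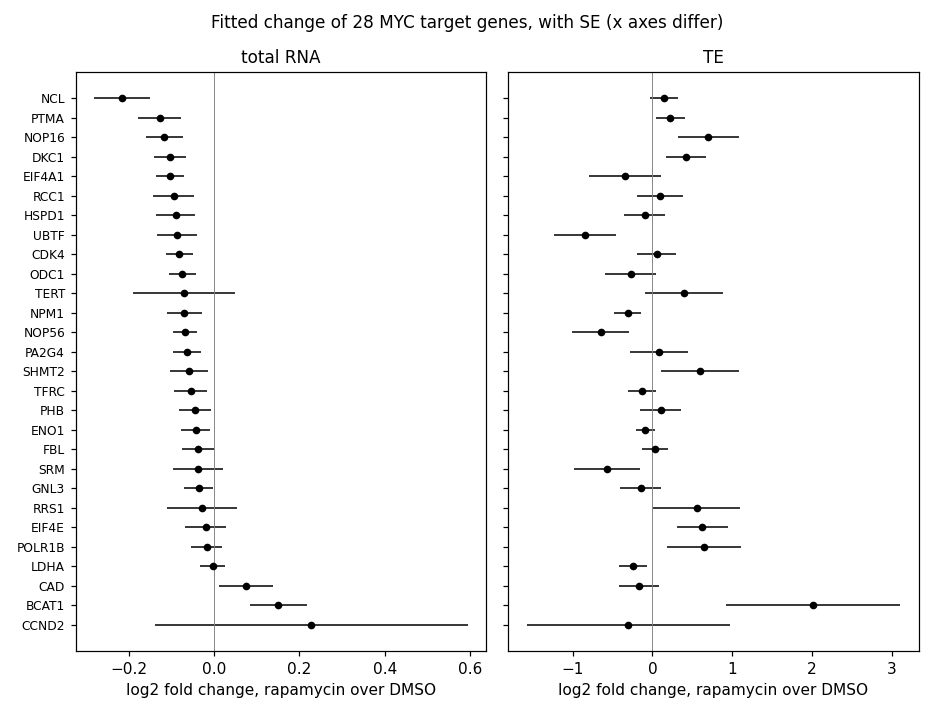
Fitted log2 fold changes (points) and SE (bars) of 28 MYC target genes in total RNA and in TE, ordered by the total RNA value, on separate x axes. In total RNA 25 of the 28 points lie below 0, with NCL lowest at −0.21, while in TE 13 lie below 0 and 15 above.

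Genes that MYC with MIZ1, or MXD factors, are known to repress were tested for 8 of 12 listed. The median TE value was −0.09, and ran from −0.53 to 0.09 with 1 library left out. An unadjusted p under 0.05 for lower TE was reached by 2 of the 8 genes, against 6.42% of all genes. With the replicate block or the culture block it was reached by 0. ID2, an inhibitor of helix-loop-helix factors, measured 24.6, 36.4 and 23.8 RF CPM in DMSO and 14.9, 14.5 and 13.3 RF CPM in rapamycin, with a TE difference of −0.94 ± 0.34 (SE; edgeR quasi-likelihood, adjusted p = 0.291; DESeq2 adjusted p = 0.0365). CDKN1B, the cyclin-dependent kinase inhibitor p27, measured 36.9, 32.7 and 24.5 RF CPM against 16.6, 14.5 and 16.6 RF CPM, with a TE difference of −0.83 ± 0.32 (edgeR adjusted p = 0.311; DESeq2 adjusted p = 0.0667). With the culture as a block the unadjusted p were 0.196 for ID2 and 0.179 for CDKN1B. With voom and the variance by library type they were 0.138 and 0.179. For both genes the DMSO cultures were all higher than the rapamycin cultures, in RF as in log2 TE. Of all genes, 6.19% were separated in this direction in log2 TE and 9.45% in either direction in RF. In rapamycin 3 the floor of 3 counts was 10.8 CPM, so ID2 at 13.3 and CDKN1B at 16.6 CPM lay near it. In total RNA no gene of the list had an unadjusted p under 0.05, and the 2 smallest belonged to GADD45A (−0.11 ± 0.07), which ran from −0.18 to −0.04 with 1 library left out, and NDRG2 (1.23 ± 0.87), which ran from 0.71 without DMSO 2 to 2.28 without DMSO 3 and was 0.04 or 0.09 in the FPKM fits.

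Across the 6 total RNA libraries, 3 of 9453 genes with at least 10 CPM tracked MYC most closely in log2 CPM. They were ATG16L2 with a Pearson r of 0.994, ZNF282 with 0.991 and COMMD9 with 0.986, given as a description over 6 libraries in which MYC spanned only 106 to 115 CPM.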

How the data were processed

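Per the labels and the study's methods, the authors isolated ribosome-protected fragments and total RNA, sequenced both, mapped reads to GRCh37 with HISAT2, counted them per gene with featureCounts and deposited these raw counts; strand use is not given in the sources used here. The authors also deposited FPKM from Cufflinks 2.2.1 and Cuffnorm per gene and isoform for total RNA. Their own comparison columns (TE per treatment, log2 fold change, p-value and adjusted p) were not used, nor were a pooled column and the Cuffnorm count files.

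Here, genes with at least 10 counts over the RF and 10 over the total RNA libraries were tested in edgeR 4.0.16 (R 4.3.3) with TMM scaling within library type, the robust quasi-likelihood test and Benjamini-Hochberg adjustment over all 13329 genes. RiboDiff, the study's tool for TE, was not run. Isoforms were tested with limma 3.58.1 and FPKM levels are means over 3 cultures. DESeq2 1.42.0, voom, other scalings, filters, blocks and left-out libraries served as alternatives. The tests were first tried on simulated data. Gene positions and isoform models come from GENCODE v44 lifted to GRCh37, promoters and the microRNA from RefSeq. Floors of 3 counts cover counting error only. The members and lists were chosen with earlier results of these data known. Named were all members and, from each list without a call, the 2 genes with the smallest p in TE and in total RNA.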

Additional observations from a re-analysis of the deposited data

How the results depend on the processing

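The calls depended on the tool and on single libraries. With edgeR no gene passed in TE, RF or total RNA, whereas DESeq2 called 606 genes lower and 675 higher in TE, 1 and 4 in RF, and 4 and 25 in total RNA; the cause was not tested. Of the 9 members only MGA was called by DESeq2, in TE. With no count filter RF gave 10 lower and 10 higher. The FPKM fits of total RNA gave 2 lower with a pseudocount of 1 and 3 lower with 0.1 or with no minimum, and 2 higher in each. Isoform calls (4 lower and 1 higher) became 93 and 327 with no minimum and 2 and 0 with a minimum of 1 FPKM.

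Leaving out 1 library at a time, the calls ran from 0 to 331 lower and 0 to 65 higher in TE, 0 to 1 and 0 to 5 in RF, 0 to 4 and 0 to 683 in total RNA, and 0 to 6 and 0 to 3 for isoforms. Without DMSO 3 there were 331 lower and 65 higher in TE and 683 higher in total RNA, and without rapamycin 1 there were 5 higher in TE and 5 in RF. No member was called in any of these fits.

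The replicate number did not pair the samples. Same-numbered DMSO and rapamycin libraries had correlations of their deviations from −0.12 to −0.06 in RF and from −0.22 to −0.11 in total RNA. Within a treatment, RF and total RNA libraries of the same number had correlations from −0.096 to 0.0081. The log2 TE per culture, its permutation test and the culture block all match RF to total RNA by that number. With the replicate number as a block, TE and total RNA gave 0 calls, RF gave 2 lower and 4 higher and isoforms 0 and 0, no DMSO or rapamycin library correlated best with the same-numbered library of the other treatment, and no member was called. Under that block the RF value of MXI1 was 0.25 and the TE values of MXD3 and MNT were −0.079 and 0.22.

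Signs turned for members with few footprints or small changes. In TE, MAX was −0.30 with voom, MXD3 was −0.23 with DESeq2 and −0.16 with a culture block, and MNT was 0.048 with a filter of 60 counts, 0.10 with DESeq2, 0.11 with voom and 0.38 with a culture block. In total RNA by FPKM, MXD3 was −0.080 with or without a minimum, or −0.097 with a pseudocount of 0.1, and FBXW7 was −0.040, or −0.042 with a pseudocount of 0.1. Leaving out 1 library, TE ran from −0.93 to 1.86 for MAX, −0.62 to 0.10 for MLX, −0.53 to 0.44 for MNT and −1.55 to 1.33 for MXD3. RF ran from −0.35 to 0.29 for MLX, −0.19 to 0.99 for MNT, −1.65 to 0.49 for MXD3 and −0.73 to 0.41 for MXI1. Total RNA ran from −0.070 to 0.0036 for MAX, −0.031 to 0.019 for MGA, −0.12 to 0.0015 for MXI1 and −0.0086 to 0.12 for MYCBP2. MYC, MXD4, MGA and FBXW7 kept the sign of their TE value in all 14 alternatives. MAX, MXI1 and MXD3 have no value with a filter of 60 counts.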

Other observations

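The split of FBXW7 footprints into high and near-empty libraries was rare. A pattern of at least 20 RF counts in 3 libraries and at most 1 in the other 3, whichever they were, occurred in 2 of 13329 genes, FBXW7 and CREB1, a cyclic AMP-responsive transcription factor. CREB1 was high in DMSO 3, rapamycin 1 and rapamycin 2, with 24.5, 26.5 and 29.0 RF CPM, so the 2 genes were not high in the same libraries. The total RNA of CREB1 was 50.4 to 53.9 CPM in all 6 libraries. This pattern was looked for after the counts of FBXW7 were seen.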
